A study of Danio rerio with 15 samples.

Results

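The sarcomere is the contractile unit of striated muscle. Myosin heads of the thick filament pull on actin, troponin and tropomyosin on the thin filament let them do so when calcium is released, and titin and nebulin hold the filaments in register. Fast fibres, slow fibres and heart muscle build it from different gene copies of the same subunits, and in the zebrafish larva most trunk muscle is fast, with a superficial layer of slow fibres that forms first. The genes described here are troponin, striated muscle actin, myosin-binding protein C, fast regulatory light chain, titin and nebulin genes, the tropomyosin genes with a number in their symbol, the myosin heavy chain genes with symbols in myhc, myhz or smyhc, plus the heart genes myh6 and myl7, chosen by symbol patterns, and each had to average 10 or more normalised reads (its base mean) in both deposited tables. The symbol patterns found 54 of 36351 genes and 53 of them met the minimum. They were 18 fast, 9 slow and 6 cardiac genes, 5 striated muscle actins, 5 tropomyosins, 3 titin and nebulin genes, and 7 further genes with troponin names that were given no fibre class. One of the 7, tnni3k, is named for a kinase that binds troponin I and is no filament protein. The patterns do not cover all tropomyosins and heavy chains: tpma and the heavy chains myh7, myh7ba, myh7bb, myh7l, myha and myhb stand in a separate list of other muscle genes. The ventricular heavy chain gene vmhc has no row of that symbol, but RefSeq gives vmhc as a synonym of myh7, whose values are given with the heart genes.

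Messenger RNA was sequenced from whole AB wild-type zebrafish larvae at 100 hours after fertilization. From 24 hours on, for a stated 3 days, their water contained either 0.01% DMSO, the solvent control, or one of a pair of chlorinated compounds at 50 nM: TCPM, which is tris(4-chlorophenyl)methane, and TCPMOH, which is tris(4-chlorophenyl)methanol. TCPMOH has a hydroxyl group in the place of the hydrogen on TCPM's central carbon. Whether DMSO was also present with the compounds is not given. There were 3 groups of 5 samples, each sample a pool of 8 to 10 larvae, and the embryos came from 20 breeding pairs in 3 experimental replicates. The authors' deposited tables hold DESeq2 results, with no value per sample. The values of genes with 1 read reveal 8 libraries per fit, namely 4 of a compound and the same 4 of DMSO each time, without showing which sample of a group was left out. Reads assigned per library ran from 18.2 to 25.9 M for TCPM and its controls, and from 18.1 to 25.7 M for TCPMOH and its controls. Group means below are the normalised read counts that a table's base mean and fold change imply for 4 against 4 libraries, and since each table was scaled on its own, DMSO means differ slightly between them. Fold changes are compound over DMSO, the reverse of the deposited sign, and unless said otherwise are given before shrinkage, that is, with the authors' pull toward 0 undone. The strength of that pull is not given and was inferred from the standard errors. The p-values measure the spread between pools, which share parents to a degree that is not given. In whole larvae, fewer muscle cells and less RNA per muscle cell cannot be told apart.

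Sarcomere transcripts were abundant in these larvae. The 53 genes took 6.11% of all normalised reads in the TCPM table, and 6.04% in that of TCPMOH. These are shares of reads, which grow with transcript length as well as with transcript number. The actin gene actc1b took more reads than any other gene in both, with base means of 334959 (TCPM) and 307854 (TCPMOH) in the authors' deposited tables. The fast class held 3.57% of the summed base mean, the slow class 0.130% and the cardiac class 0.0197% in the TCPM table. The base mean minimum cost 1 gene. In the authors' deposited tables tnni4b.1 lay just outside, at 8.13 and 7.64 normalised reads, and the slow troponin I gene tnni1a just inside, at 12.9 and 12.6.

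The comparison of TCPM with DMSO asked whether larvae kept in TCPM built their contractile apparatus with other transcript levels. No sarcomere gene passed an adjusted p of 0.05. DESeq2 called 0 of 53 in the authors' deposited table, where 419 of 22223 genes tested, 1.89%, were called. At an unadjusted p under 0.05, 5 of the 53 passed, 9.43%, beside 8.62% of all genes tested, a share near the background. Of these 2 were higher and 3 lower than in DMSO, beside 5% and 3.62% of all genes. One of the 53, tnni1a, had no adjusted p because the authors' filter on low means removed it. The median log2 fold change of the 53 genes was 0.0042, and 27 lay above 0 and 26 below.

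TCPMOH was compared with the same DMSO libraries, and again no sarcomere gene passed. DESeq2 called 0 of 53 in the authors' deposited table, against 547 of 21491 genes tested, 2.55%. At an unadjusted p under 0.05, 2 of the 53 passed, 3.77%, beside 9.68% of all genes tested. Both were higher, and 0 were lower in DESeq2, beside 5.27% higher and 4.41% lower over all genes. The median log2 fold change was -0.0061, with 23 genes above 0 and 30 below. Both comparisons rest on the same 4 DMSO libraries, so a like value in both is not a second observation.

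**Figure D1:**
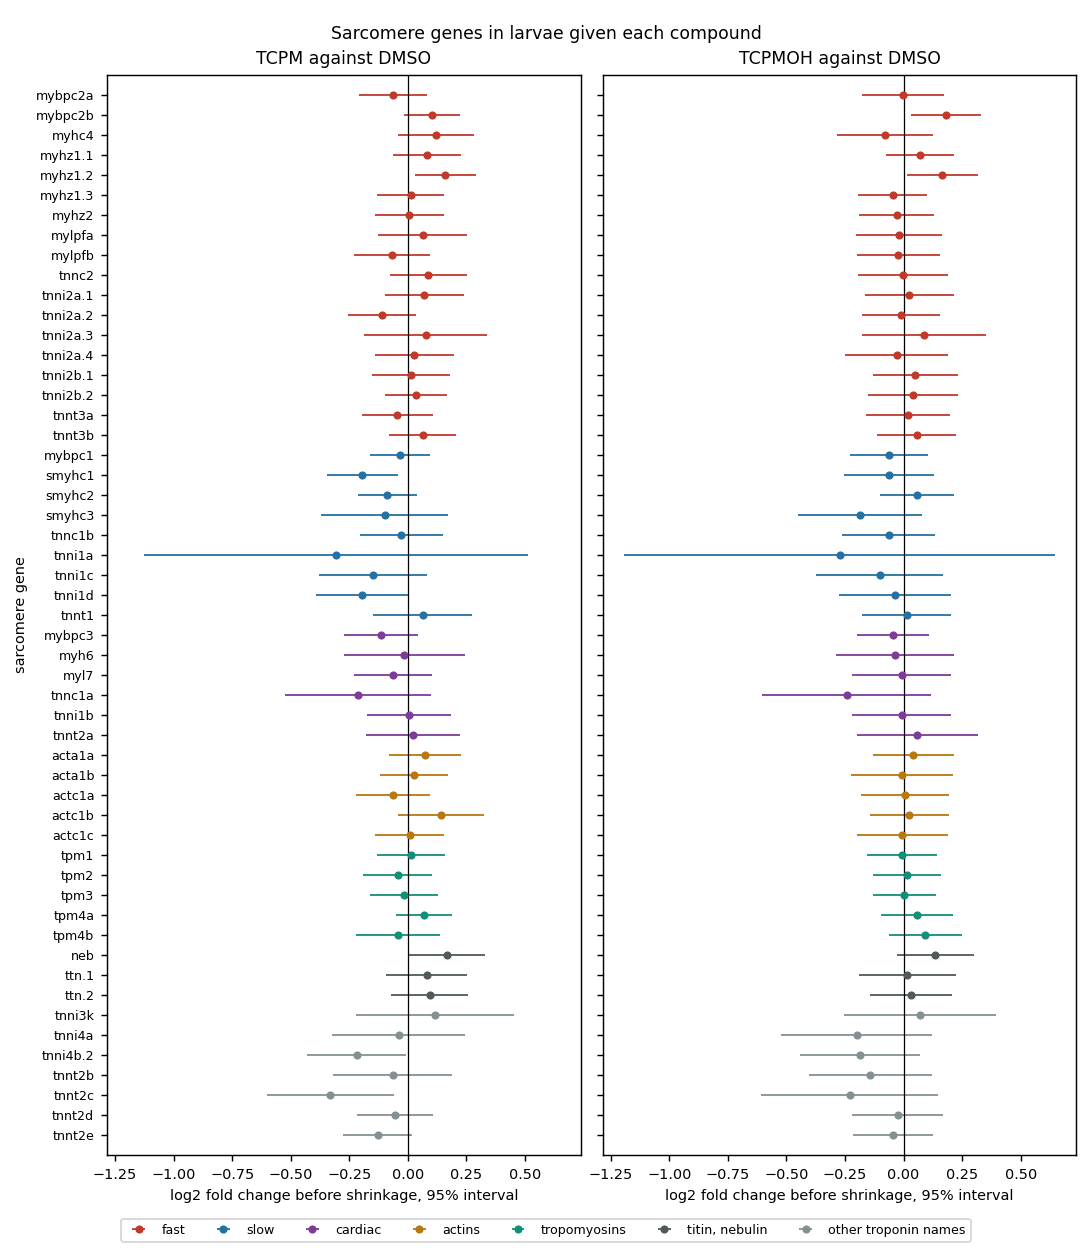
Log2 fold change of the 53 sarcomere genes before shrinkage (horizontal axis, points) with its 95% interval (lines), for TCPM on the left and TCPMOH on the right, coloured by class. The points lie between -0.33 and 0.18, the intervals of tnni1a are the widest, and those of 5 genes with TCPM and 2 with TCPMOH leave out 0.

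The measurements were fine enough to bound most of these changes. Before shrinkage the 95% interval lay inside a 1.25-fold change in either direction for 40 of 53 genes with TCPM and for 42 with TCPMOH, and inside a 1.5-fold change for 51 and 50. The classes were not bounded alike. Inside 1.25-fold with TCPM were 17 of 18 fast, 4 of 9 slow and 5 of 6 cardiac genes, and 3 of the 7 further troponin names. With TCPMOH these counts were 16, 6, 5 and 2. From each gene's standard error, the fold needed to reach the largest p-value called was computed. With TCPM its median was 1.21, from 1.15 for the tropomyosin gene tpm4a to 2.61 for tnni1a. With TCPMOH the median was 1.24, from 1.17 for tpm3 to 2.85 for tnni1a. Having no adjusted p in either table, tnni1a could not be called at the base means it had. Among the 16 sarcomere genes whose base mean was 10000 or more, the coefficient of variation between pools implied by the fitted standard errors had a median of 7.85% for TCPM and 8.61% for TCPMOH. The other 219 and 197 genes of that depth had medians of 8.12% and 10.4%. At lower depth the sarcomere genes had the higher medians. From 1000 to 10000 reads they were 7.58% against 7.19% for other genes with TCPM and 8.90% against 8.35% with TCPMOH, and from 100 to 1000 reads 12.7% against 10.6% and 12.9% against 11.8%. These coefficients come from the whole standard error, so they include the noise of read counting, which is larger at fewer reads. Genes were not matched for depth within a range, so the medians do not show that sarcomere genes varied more between pools.

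**Figure D2:**
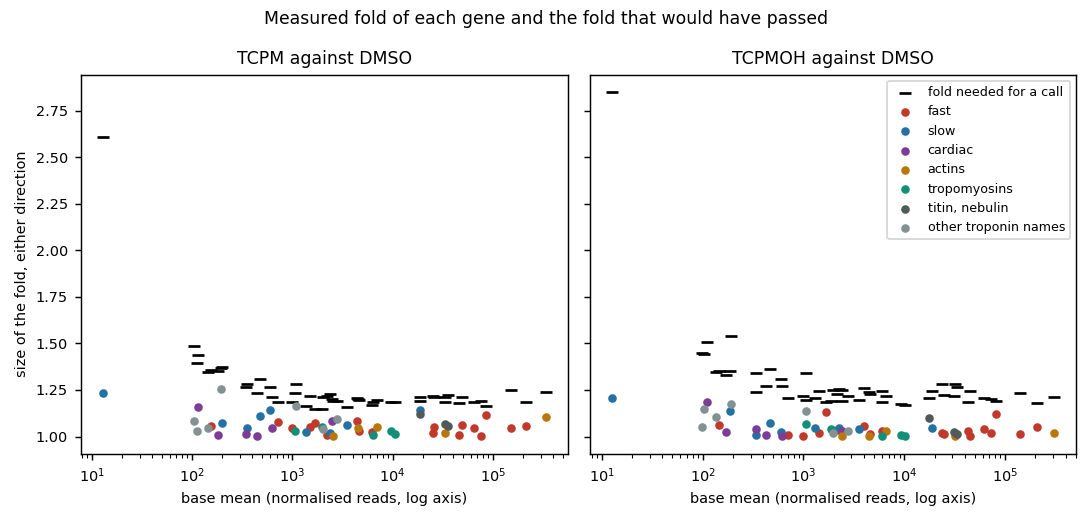
Size of each sarcomere gene's fold change in either direction (coloured points, by class), against base mean on a log axis, for TCPM on the left and TCPMOH on the right. Black bars give the fold that would have reached the largest p-value called at that gene's standard error. Every point lies under its bar in both panels, and the bars rise at low base means, to 2.61 and 2.85 for tnni1a, which had no adjusted p.

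Fast muscle genes lay slightly above DMSO with TCPM, and none passed. Of the 18 fast genes 14 had a log2 fold change above 0, beside 50.1% of all genes tested, and their median was 0.05, beside 0.00033 for all genes. With TCPMOH 9 of 18 lay above 0, beside 49.1% of all genes, with a median of 0.0092. These genes share tissue and libraries, so the signs are not independent and no test was made of them.

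The fast myosin heavy chains lie side by side in the genome. In RefSeq's GRCz12tu gene order myhz1.1, myhz1.2 and myhz1.3 are direct neighbours, as are myhz2 and myhc4, with 1 protein-coding gene between the groups. Neighbouring copies of this kind can match the same reads, and whether such reads were counted is not given. Each is therefore uncertain as a single gene, and the sum of the myhz genes, without myhc4, is given as well. Together myhz1.1, myhz1.2, myhz1.3 and myhz2 held 1.99% of the summed base mean in each table, and their summed group means were 1.05 times those of DMSO with TCPM and 1.04 times with TCPMOH. Sums carry no error here, since the covariance between the genes is not known.

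Within the cluster myhz1.2 (Entrez gene 799300) had the highest fold change of the fast heavy chains in both tables. It went from an implied mean of 80943 normalised reads in DMSO to 90375 with TCPM, a log2 fold change of 0.16 (95% interval 0.03 to 0.29), with an adjusted p of 0.336 in the authors' deposited table. With TCPMOH it went from 77578 to 87006, a log2 fold change of 0.17 (0.01 to 0.32), with an adjusted p of 0.425 in the authors' deposited table. Both intervals leave out 0 and neither adjusted p passed. Its neighbours lay closer to 0. For myhz1.1, implied means of 208826 in DMSO and 221181 with TCPM gave a log2 fold change of 0.08 (-0.06 to 0.23), and myhz2 was at 75867 and 76202, a log2 fold change of 0.0063 (-0.14 to 0.15). With TCPMOH they stood at 0.07 (-0.07 to 0.22) and -0.03 (-0.19 to 0.13). The fast heavy chain gene myhc4 had implied means of 4249 in DMSO and 4614 with TCPM, a log2 fold change of 0.12 (-0.04 to 0.28), and with TCPMOH a log2 fold change of -0.08 (-0.28 to 0.13).

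The regulatory light chain gene mylpfa, which marks fast muscle, had implied means of 147198 normalised reads in DMSO and 153819 with TCPM, a log2 fold change of 0.06 (-0.13 to 0.25). With TCPMOH they were 141080 and 139305, a log2 fold change of -0.02 (-0.20 to 0.16). The calcium sensor of fast fibres, tnnc2, stood at 0.09 (-0.08 to 0.25) with TCPM and -0.0012 (-0.19 to 0.19) with TCPMOH. Both genes' intervals span 0 with either compound. Over the rest of the fast class, which includes the 6 fast troponin I genes of the tnni2a and tnni2b clusters and the troponin T genes tnnt3a and tnnt3b, log2 fold changes lay between -0.11 and 0.08 with TCPM and between -0.05 and 0.09 with TCPMOH, leaving out mybpc2b. Myosin-binding protein C sets the spacing and speed of the myosin heads, and its fast form mybpc2b (Entrez gene 541384) had the smallest adjusted p of the 53 genes with TCPMOH. Its implied means were 1563 in DMSO and 1770 with TCPMOH, a log2 fold change of 0.18 (0.03 to 0.33), with an adjusted p of 0.316 in the authors' deposited table. With TCPM they were 1631 and 1750, a log2 fold change of 0.10 (-0.02 to 0.22).

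Slow muscle genes lay slightly below DMSO, and none passed. With TCPM 8 of 9 slow genes had a log2 fold change below 0, with a median of -0.10, and with TCPMOH 7 of 9, with a median of -0.06. Of all genes tested, 11091 of 22223 lay below 0 with TCPM and 10945 of 21491 with TCPMOH. As in the fast class, the signs are not independent and no test was made of them. The slow myosin heavy chain smyhc1 (Entrez gene 321552), the main heavy chain of the first slow fibres, had the smallest adjusted p of the 53 genes with TCPM. Its implied means were 20061.5 normalised reads in DMSO and 17538 with TCPM, a log2 fold change of -0.19 (-0.34 to -0.04), or 1.14-fold lower, with an adjusted p of 0.271 in the authors' deposited table. With TCPMOH the implied means were 19228 and 18427, a log2 fold change of -0.06 (-0.25 to 0.13), with an adjusted p of 0.967 in the authors' deposited table.

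The slow heavy chains smyhc1, smyhc2 and smyhc3 are direct neighbours too, and their summed implied means were 0.885 times those of DMSO with TCPM and 0.970 times with TCPMOH. Most slow-class reads were those of smyhc1. Without it, the summed means of the other 8 slow genes were 0.954 and 0.990 times those of DMSO, against 0.899 and 0.968 with it. On its own smyhc2 was at 3625 in DMSO and 3411 with TCPM, a log2 fold change of -0.09 (-0.21 to 0.04), and at 0.06 (-0.10 to 0.21) with TCPMOH. For smyhc3 the values were -0.10 (-0.37 to 0.17) and -0.19 (-0.45 to 0.08). All of these intervals but that of smyhc1 with TCPM span 0.

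Among the slow thin filament genes, tnni1d, a gene of the slow troponin I family, had implied means of 637 in DMSO and 556 with TCPM, a log2 fold change of -0.19 (-0.39 to 0.0059), with an adjusted p of 0.602 in the authors' deposited table. With TCPMOH it stood at -0.04 (-0.27 to 0.20). The slow calcium sensor tnnc1b was at -0.03 (-0.20 to 0.15) and -0.06 (-0.26 to 0.14), and the slow myosin-binding protein C, mybpc1, at -0.03 (-0.16 to 0.09) and -0.06 (-0.23 to 0.11). The slow troponin T gene tnnt1, named because it was the slow gene above 0 with TCPM, stood at 0.06 (-0.15 to 0.28). The intervals of these 4 genes span 0 in both tables where given.

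None of the 6 cardiac genes had an interval that left out 0 in either comparison. Of these 6 genes 4 lay below 0 with TCPM (median -0.04) and 5 with TCPMOH (median -0.02). Over all genes tested these counts were 11091 of 22223 and 10945 of 21491. Of the 6, 0 passed an unadjusted p under 0.05 in DESeq2 in either table. That share was 8.62% with TCPM and 9.68% with TCPMOH over all genes tested. With only 6 genes, a count of 0 is not set apart from these shares. The cardiac myosin-binding protein C gene mybpc3 had implied means of 2568 in DMSO and 2369 with TCPM, a log2 fold change of -0.12 (-0.27 to 0.04). With TCPMOH it stood at -0.04 (-0.20 to 0.11). The atrial heavy chain gene myh6 was at 182 in DMSO and 180.3 with TCPM, a log2 fold change of -0.02 (-0.27 to 0.24), and at -0.04 (-0.29 to 0.22) with TCPMOH. The ventricular heavy chain under the symbol myh7, which is outside the 53 genes, was at 2078 and 2023, a log2 fold change of -0.04 (-0.16 to 0.08), and at -0.01 (-0.15 to 0.12) with TCPMOH. The cardiac light chain gene cmlc1, also outside the 53 and named after its values were seen, stood at -0.22 with TCPM. In DESeq2 its p was 0.0460 unadjusted and 0.561 adjusted in the authors' deposited table. With TCPMOH its deposited log2 fold change was 0.03, with an adjusted p of 0.988 in DESeq2. The light chain gene myl7, a marker of all heart muscle cells, was at 647 and 619, a log2 fold change of -0.06 (-0.23 to 0.10), and at -0.0076 (-0.22 to 0.20) with TCPMOH.

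The cardiac troponin T gene tnnt2a, without which the zebrafish heart does not beat, was at 345 in DMSO and 349.8 with TCPM, a log2 fold change of 0.02 (-0.18 to 0.22), and at 0.06 (-0.20 to 0.32) with TCPMOH. Its partner in the heart, the calcium sensor tnnc1a, had few reads, 124 in DMSO and 107 with TCPM. Its log2 fold change of -0.21 (-0.52 to 0.10), and of -0.24 (-0.60 to 0.12) with TCPMOH, had the widest intervals of the heart class. The troponin I gene tnni1b stood at 0.0042 (-0.18 to 0.18) and -0.0081 (-0.22 to 0.20).

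The actins, tropomyosins, titins and nebulin, which were given no fibre class, gave no call either. How much of their reads in whole larvae came from striated muscle was not tested. The actin gene actc1b (Entrez gene 58114), which in zebrafish is expressed mainly in skeletal muscle, had implied means of 318432 normalised reads in DMSO and 351486 with TCPM, a log2 fold change of 0.14 (-0.04 to 0.33), with an adjusted p of 0.758 in the authors' deposited table. With TCPMOH it was at 305203 and 310506, a log2 fold change of 0.02 (-0.14 to 0.19). The other 4 actins lay between -0.06 and 0.07 with TCPM. The 5 numbered tropomyosins, which cover the myosin-binding sites of actin, lay between -0.04 and 0.07 with TCPM and between -0.0068 and 0.09 with TCPMOH, where tpm4b was the highest at 0.09 (-0.06 to 0.25). A tropomyosin gene outside the 53, tpma, named after its values were seen, took more reads than any of these 5. Its implied means were 118233 in DMSO and 122712 with TCPM, a log2 fold change of 0.05 (-0.11 to 0.22), and it stood at 0.00067 (-0.17 to 0.17) with TCPMOH.

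Nebulin runs along the thin filament and titin from the Z-disc to the M-line. All 3 of their genes lay above 0 in both tables, beside 50.1% (TCPM) and 49.1% (TCPMOH) of all genes tested. For neb (Entrez gene 566928) the implied means were 17671 in DMSO and 19826 with TCPM, a log2 fold change of 0.17 (0.00076 to 0.33) and the highest of the 53 genes with TCPM, with an adjusted p of 0.576 in the authors' deposited table. With TCPMOH they were 16936 and 18614, a log2 fold change of 0.14 (-0.03 to 0.30). The neighbouring titin genes were at 0.08 (-0.09 to 0.25) for ttn.1 and 0.09 (-0.07 to 0.26) for ttn.2 with TCPM, and at 0.02 (-0.19 to 0.22) and 0.03 (-0.14 to 0.21) with TCPMOH. Summed, the titins were 1.06 and 1.02 times DMSO.

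Of the 7 genes with troponin names and no fibre class, 6 lay below 0 in each table. Of all genes tested, 11091 of 22223 (TCPM) and 10945 of 21491 (TCPMOH) did, and no test was made of the signs. In one of them, tnnt2c, a troponin T gene, the implied means were 214 in DMSO and 171 with TCPM, a log2 fold change of -0.33 (-0.60 to -0.06), or 1.26-fold lower, with an adjusted p of 0.334 in the authors' deposited table. This was the lowest value of the 53 genes with TCPM, and with TCPMOH it stood at -0.23 (-0.61 to 0.15). The troponin I gene tnni4b.2 was at 1183 and 1017, a log2 fold change of -0.22 (-0.43 to -0.0076), with an adjusted p of 0.547 in the authors' deposited table, and at -0.18 (-0.44 to 0.07) with TCPMOH. For tnni4a the values were -0.04 (-0.32 to 0.25) and -0.20 (-0.52 to 0.12). The 5 genes at an unadjusted p under 0.05 with TCPM were thus myhz1.2 and neb above DMSO and smyhc1, tnnt2c and tnni4b.2 below it.

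The compounds were set against each other through the difference of their deposited log2 fold changes, TCPMOH minus TCPM, at the same dose and time. In this normal test with Benjamini-Hochberg adjustment over 22732 genes, 0 of 53 sarcomere genes passed, beside 103 genes, 0.453%, of all tested. At an unadjusted p under 0.05, 2 of 53 passed, 3.77%, beside 4.62% of all genes, of which 2.27% were higher and 2.35% lower. They were myhc4, lower with TCPMOH than with TCPM at -0.17 (95% interval -0.33 to -0.01), and smyhc2, higher at 0.13 (9e-05 to 0.26), both with an adjusted p of 1.00 in that test. Both lie beside other heavy chain copies, so each is uncertain as a single gene. For smyhc1 the difference was 0.12 (-0.03 to 0.27), for tnni1d 0.13 (-0.05 to 0.31), for tpm4b 0.12 (-0.03 to 0.27) and for actc1b -0.10 (-0.25 to 0.06). For tnni4a it was -0.11 (-0.32 to 0.10) and for tnnc2 -0.08 (-0.23 to 0.08), and the intervals of these 6 genes span 0. Before shrinkage the interval of the difference lay inside a 1.25-fold change for 44 of 53 genes and inside a 1.5-fold change for 52. Of the 53 differences 25 lay above 0, 47.2%, beside 49.3% of all genes. By class the median difference was -0.00086 for fast, 0.0046 for slow and 0.0093 for cardiac genes, beside -0.0013 for all genes tested. Before shrinkage the slow median was 0.03.

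**Figure D3:**
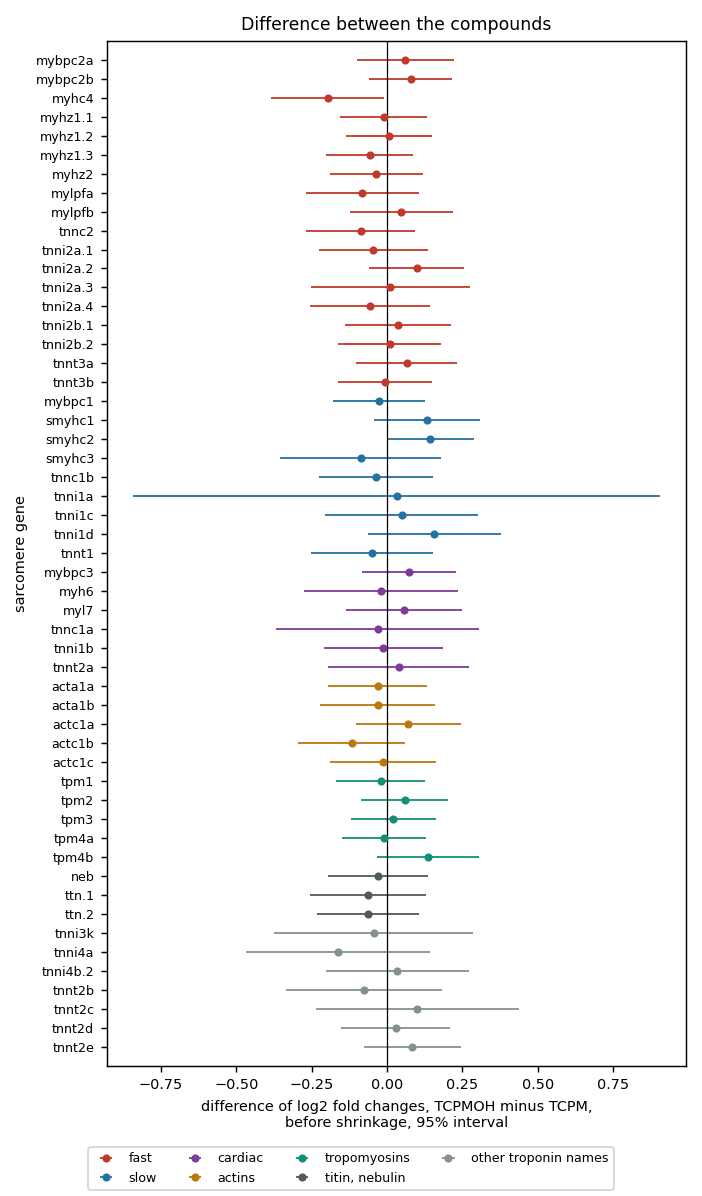
Difference between the compounds, TCPMOH minus TCPM, in log2 fold change before shrinkage (horizontal axis, points) with its 95% interval (lines) for the 53 sarcomere genes, coloured by class. The points run from -0.20 for myhc4 to 0.16 for tnni1d, and only the interval of myhc4 leaves out 0.

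Some genes in other muscle lists did change. Some of these lists covered Z-disc and M-line genes, other myosin chains, calcium handling and energy supply. The others covered muscle and heart factors, myosin chaperones, protein breakdown and smooth muscle. Together they named 162 further genes, of which 151 reached the same minimum of 10. A few genes stand in more than 1 list. In DESeq2, 2 of them rose and 3 fell with TCPM, and 3 rose and 7 fell with TCPMOH. That is 3.31% and 6.62% of the 151, beside 1.89% and 2.55% of all genes tested. The lists were chosen with earlier results of these data known. These shares, and those of single lists below, therefore cannot measure an enrichment. The medians of the lists on the deposited scale ran from -0.08 to 0.08 with TCPM and from -0.09 to 0.04 with TCPMOH.

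The list of muscle and heart factors had the most calls. Most of its genes encode transcription factors, but it also holds the secreted growth factor gene mstnb and the cell fusion gene mymk. Of 25 measured muscle and heart factors 3 fell and none rose with TCPM, 6 fell and none rose with TCPMOH, and the medians before shrinkage were -0.10 and -0.13. Of all genes tested 0.616% were called lower and 1.27% higher with TCPM, and 1% lower and 1.54% higher with TCPMOH. The master regulator of myogenesis, myod1 (Entrez gene 30513), went from an implied mean of 446 normalised reads in DMSO to 316 with TCPM, 1.41-fold lower, with an adjusted p of 0.000366 in the authors' deposited table. With TCPMOH it went from 427 to 341, 1.25-fold lower, with an adjusted p of 0.0399 in the authors' deposited table. Its relative myf6, which acts late in fibre formation, fell 1.28-fold with TCPM (adjusted p = 0.0384) and 1.39-fold with TCPMOH (adjusted p = 0.00267), by the p-values of the authors' deposited tables. The homeobox factor six1b fell 1.25-fold with TCPM (adjusted p = 0.00708) and 1.24-fold with TCPMOH (adjusted p = 0.0268), again by the authors' deposited tables. The related gene six1a, named after its values were seen, passed with neither compound (adjusted p = 0.929 and 0.977 in DESeq2). None of these factors differed between the compounds past the threshold.

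With TCPMOH 3 more factors passed. The serum response factor gene srfa, whose product binds actin gene promoters, was 1.36-fold lower (adjusted p = 0.00714), the myocyte enhancer factor gene mef2ab 1.43-fold lower (adjusted p = 0.0153) and the heart and gut factor gata4 1.67-fold lower (adjusted p = 0.0292) in the authors' deposited table. With TCPM they were 1.11-fold, 1.22-fold and 1.31-fold lower, with adjusted p values of 0.794, 0.440 and 0.445 in the authors' deposited table, and the difference between the compounds did not pass for any of them (adjusted p = 0.462 for srfa, 1.00 for mef2ab and gata4 in the normal test). The factor myog, named after its values were seen, is required for fusion of muscle cells and lay at 328 and 322 with TCPM and at 315 and 314 with TCPMOH.

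The Z-disc gene tcap, whose product telethonin caps the ends of titin, differed between the compounds in the normal test with its assumed covariance. It went from an implied mean of 841 in DMSO to 542 with TCPMOH, 1.55-fold lower, with an adjusted p of 2.25e-06 in the authors' deposited table. With TCPM it was at 877 and 790.5, 1.11-fold lower, with an adjusted p of 0.780 in the authors' deposited table. The difference of the deposited log2 fold changes was -0.41 (-0.58 to -0.23), with an adjusted p of 0.00247 in the normal test. Against DMSO, tcap was the sole call with TCPMOH among 30 Z-disc and M-line genes, beside 2.55% of all genes tested. With TCPM 0 of the 30 passed in DESeq2, beside 1.89% of all genes. There 2 had an unadjusted p under 0.05, beside 8.62% of all genes.

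Myoglobin and a pyruvate kinase gene rose among 23 genes of muscle energy supply. The oxygen store mb (Entrez gene 393558) went from 810 to 1091 with TCPM, 1.35-fold higher, and from 777 to 1197 with TCPMOH, 1.54-fold higher, with adjusted p values of 7.75e-05 and 1.21e-06 in the authors' deposited tables. Its difference between the compounds was 0.15 (-0.01 to 0.32) and did not pass. The glycolytic gene pkma rose 1.16-fold with TCPM (adjusted p = 0.0192) and was 1.15-fold higher with TCPMOH (adjusted p = 0.0569) in the authors' deposited tables. Myosin is folded by Hsp90 together with Unc45b and Smyd1b. The chaperone list held 9 measured genes, which also included bag3 and the small heat shock gene hspb8. Whether their values in whole larvae came from muscle was not tested. Of the 9 genes, hsp90aa1.1 and hsp90aa1.2, duplicates that are uncertain as single genes, rose with TCPMOH by log2 fold changes of 0.38 and 0.46. Their adjusted p values were 9.03e-06 and 5.21e-06 in the authors' deposited table. Both also differed between the compounds, by 0.34 and 0.52 on the deposited log2 scale, with adjusted p values of 0.000149 and 1.33e-09 in the normal test. As for tcap, these calls rest on the assumed covariance of 0.5, and whether each holds at 0 was not recorded. The Hsp90 co-factors, named after their values were seen, lay at 0.987 times DMSO for unc45b and 1.01 times for smyd1b. None of the remaining lists held a call in DESeq2: at an unadjusted p under 0.05 there were 1 of 16 other myosin chain genes, 0 of 32 calcium handling genes, 2 of 8 breakdown genes and 2 of 10 smooth muscle genes with TCPM, and 2, 2, 3 and 1 with TCPMOH. Over all genes tested the shares at that threshold were 8.62% with TCPM and 9.68% with TCPMOH. Smooth muscle markers lay above 0 in 10 of 10 cases with TCPM, with a median of 0.10 before shrinkage, and in 8 of 10 with TCPMOH. Of all genes tested 50.1% and 49.1% lay above 0, and no test was made of the signs. The part of these markers in the values of the striated muscle genes was not tested.

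**Figure D4:**
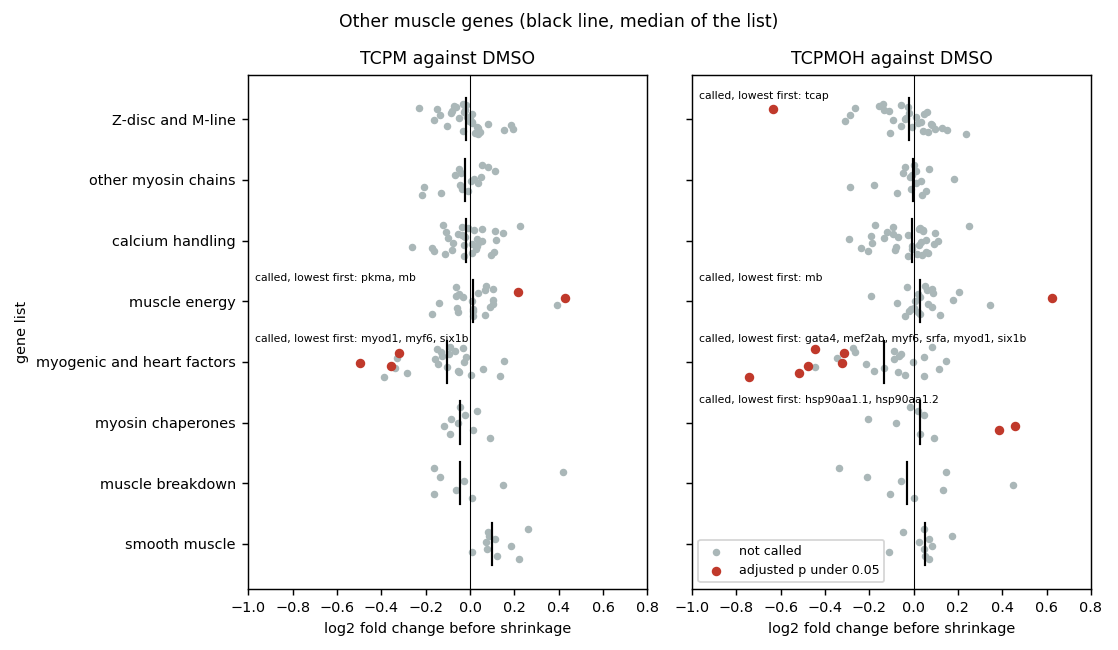
Log2 fold change before shrinkage (horizontal axis) of 151 other muscle genes by list, for TCPM on the left and TCPMOH on the right, with genes called by DESeq2 in red and named, others in grey, and the median of each list as a black line. Called transcription factor genes lie below 0 in both panels, mb lies above 0 in both, and tcap stands apart at -0.63 with TCPMOH.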

How the data were processed

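The values start from the authors' deposited DESeq2 tables, 1 per compound. FastQC, cutadapt, STAR, featureCounts and DESeq2 were run by the authors, per the submitters' processing notes, with neither versions nor genome build given; the GTF was version V4.3.2, per the file headers. Deposited columns are the base mean (a signal, mean of size-factor-scaled counts), the log2 fold change with standard error, the Wald score, the p-value and the adjusted p-value. The tables hold no column per sample, so count fits and leave-one-out fits considered in the design were not run. Members, classes and lists were chosen with earlier results of these data known. Values are named for members past the threshold, the 4 with the highest base mean per class, the 4 highest and lowest per comparison, and a few set genes.

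The sign was read from the DMSO means the tables imply, whose log2 ratio had an SD of 0.0181 over 16488 genes if the tables give DMSO over compound and 0.104 otherwise. Shrinkage was undone for a normal prior with an SD of 0.216 (TCPM) or 0.248 (TCPMOH), which leaves the Wald score as it was. The deposited columns do not give this SD, and it was inferred from the largest standard error of each fit. Values before shrinkage, implied means and coefficients of variation rest on that inference. The difference test took the covariance from shared DMSO libraries as 0.5 times the product of both standard errors. It was run on simulated data that had this same covariance and normal errors built in. That simulation therefore could not check the choice of 0.5. Whether reads matching several places were counted, and whether counting used strand, is not given. Python 3.11.15, pandas 2.3.3 and SciPy 1.17.1 were used. No sequences were used.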

Additional observations from a re-analysis of the deposited data

How the results depend on the processing

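The count of sarcomere genes called was 0 in each comparison under every alternative run: adjustment over all genes with a p-value, adjustment over genes averaging 50 or more normalised reads, a member minimum of 100 for the comparisons with DMSO, centring on the median of all genes, fold changes before shrinkage and, for the difference between the compounds, a covariance of 0. That last choice is the strict one, with 15 genes of all tested called in place of 103, and it could not have added a call. In the comparisons with DMSO, the member minimum and undoing the shrinkage left the p-values as they were. Neither of them could have added a call there, so their count of 0 was fixed in advance. The smallest adjusted p of any member ranged from 0.241 to 0.387 with TCPM and from 0.288 to 0.459 with TCPMOH. No median of the fast, slow or cardiac class moved by as much as its members' median standard error. Before shrinkage the slow median went from -0.07 to -0.10 with TCPM and from 0.0046 to 0.03 for the difference between the compounds, and centring took the fast median of that difference from -0.00086 to 0.00045. Calls in the other muscle lists, recomputed with an adjustment over all genes that was chosen after seeing the data, were 4 in place of 5 with TCPM and 9 in place of 10 with TCPMOH. For the difference between the compounds these lists held 3 calls, and 3 before shrinkage. Which of the 3 hold at a covariance of 0 was not recorded, so they rest on the assumed 0.5. Leaving out each library was not run, since the tables hold no value per sample, so no statement can be made on whether 1 library decides a value. No paired analysis was possible because the columns carry no replicate numbers. The intervals of tnni1a, tnnc1a and tnnt2c reach past a 1.5-fold change, and tnni1a, at 12.9 and 12.6 reads, has the lowest depth of the 53 genes.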
